A study of Mus musculus with 2 samples.

Results

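This account follows 10 mouse genes through the immune cells of livers with melanoma metastases. They are the guanylate-binding protein genes Gbp2, Gbp3, Gbp4, Gbp5 and Gbp7, the immunity-related GTPase genes Igtp, Irgm1 and Iigp1, the transcription factor gene Irf1 and the feedback inhibitor gene Socs1. The genes were picked by name, with earlier results of these data known, and all 10 were found among the 31253 genes measured. The cells were CD45+ leukocytes, sorted alive from digested liver in which B16F10 mouse melanoma cells had formed metastases. There were 2 libraries, 1 from Vsig4 KO mice and 1 from WT mice, both with tumour-bearing liver, and the labels give neither the number of mice per library nor their age. VSIG4 is a complement receptor of liver-resident macrophages, the Kupffer cells, and the title of the study concerns its interaction with CD5, a surface regulator of T cells, and the T cell response to the tumour.

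Interferon-gamma is made mainly by NK cells and T cells. It binds a receptor built from the chains IFNGR1 and IFNGR2, which signals through the kinases JAK1 and JAK2. The signal acts on the GAS element of an early set of genes that includes Irf1, and IRF1 in turn binds the ISRE element of later targets. The guanylate-binding proteins and the immunity-related GTPases are large GTPases that gather on vacuoles of intracellular pathogens and help to break or clear them. SOCS1 blocks the JAK kinases and so limits the same signal. In tumours this response is best known for antigen presentation and for the chemokines CXCL9 and CXCL10, which draw T cells in.

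The genes lie on several chromosomes. In GENCODE M21 on GRCm38, 4 of the guanylate-binding protein genes lie near each other on the plus strand of chromosome 3. These are Gbp5 (chr3:142493978-142522344), Gbp7 (chr3:142530342-142550149), Gbp3 (chr3:142560026-142573209) and Gbp2 (chr3:142620602-142638008). Gbp4 (chr5:105115767-105139586, minus strand) overlaps Gbp8 and Gbp9 on its own strand. Igtp (chr11:58199556-58207591, plus strand) overlaps Irgm2 on its own strand. Both families hold close paralogs, and how reads in shared stretches were assigned limits the values of Gbp4 and Igtp in particular. Irgm1 (chr11:48861968-48871683, minus strand) and Irf1 (chr11:53770014-53778374, plus strand) are also on chromosome 11, and Socs1 (chr16:10782240-10785536, minus strand) is on chromosome 16.

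The promoters are printed because most of these genes hold, just before their start, the letters of the GAS or ISRE elements of interferon-responsive genes. The sequences are from RefSeq, build GRCm38.p6, for 8 of the members, and cover the last 120 bases before the start, or 170 bases for Gbp5. Each runs 5′ to 3′ on the strand of its gene and ends at the base before the RefSeq start. Capitals mark the GAS motif TTCNNNGAA and the ISRE motif GAAANNGAAA, which reads TTTCNNTTTC where it lies on the opposite strand.
Gbp2, chr3:142620543-142620662, plus strand: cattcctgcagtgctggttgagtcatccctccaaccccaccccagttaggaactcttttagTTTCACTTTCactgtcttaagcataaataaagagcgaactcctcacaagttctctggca
Gbp3, chr3:142559924-142560043, plus strand: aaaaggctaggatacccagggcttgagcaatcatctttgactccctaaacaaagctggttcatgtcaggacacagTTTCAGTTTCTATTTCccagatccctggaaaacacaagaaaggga
Gbp5, chr3:142496764-142496933, plus strand: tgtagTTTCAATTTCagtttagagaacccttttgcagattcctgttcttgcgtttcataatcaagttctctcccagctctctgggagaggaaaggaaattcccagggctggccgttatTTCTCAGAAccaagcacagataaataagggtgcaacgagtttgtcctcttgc
Gbp7, chr3:142530216-142530335, plus strand: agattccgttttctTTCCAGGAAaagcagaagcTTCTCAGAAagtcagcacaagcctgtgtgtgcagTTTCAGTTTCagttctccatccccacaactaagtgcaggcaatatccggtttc
Igtp, chr11:58199436-58199555, plus strand: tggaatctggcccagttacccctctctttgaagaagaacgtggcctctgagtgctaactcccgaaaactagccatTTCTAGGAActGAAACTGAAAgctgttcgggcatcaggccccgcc
Irgm1, chr11:48871421-48871540, minus strand: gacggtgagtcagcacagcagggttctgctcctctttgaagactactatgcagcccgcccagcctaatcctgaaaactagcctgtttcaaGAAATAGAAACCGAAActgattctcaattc
Irf1, chr11:53769894-53770013, plus strand: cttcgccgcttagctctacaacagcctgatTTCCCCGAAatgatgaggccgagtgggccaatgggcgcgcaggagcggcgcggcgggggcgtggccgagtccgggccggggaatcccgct
Socs1, chr16:10785537-10785656, minus strand: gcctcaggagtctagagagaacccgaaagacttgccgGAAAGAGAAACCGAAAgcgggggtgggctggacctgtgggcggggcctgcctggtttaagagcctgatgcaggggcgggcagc

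In the 250 bases before the start, 7 of these 8 members held an ISRE and 4 held a GAS motif. Gbp5, Gbp7 and Igtp held both, Irf1 held a GAS motif with no ISRE, and Gbp2, Gbp3, Irgm1 and Socs1 held an ISRE with no GAS motif. Among 32817 RefSeq promoters read the same way, 2.97% held an ISRE, 7.01% a GAS motif, 0.329% both and 9.65% either. Gbp3 and Irf1 each had 2 annotated starts, and the other start of each had no match. A match says that these letters are present, not that a factor binds there.

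The Vsig4 KO library held 5799 barcodes with 25119175 UMIs and the WT library 6929 barcodes with 28537154 UMIs. After limits on genes, UMIs and mitochondrial reads, 5746 Vsig4 KO cells and 6872 WT cells were kept. The targeted gene, Vsig4, gave 3 UMIs in 3 cells of the Vsig4 KO library, against 43 UMIs in 19 cells of the WT library. The libraries shared 54 barcode sequences, and no pair of them held the same counts. In all, 74.7% of kept Vsig4 KO cells and 67.2% of kept WT cells fell into 1 of 8 cell types defined by marker UMIs. The 10 genes together gave 9086 UMIs in kept Vsig4 KO cells and 10563 UMIs in kept WT cells. Each genotype is 1 library, so no difference below has a replicate or a p-value, and the 95% intervals cover counting error only. Values are in CPM, the UMIs of a gene divided by all UMIs of the summed cells and scaled to 1000000, and a ratio is Vsig4 KO over WT.

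The cell types held 51 Vsig4 KO and 81 WT cDC1, the dendritic cells that present antigen to CD8 T cells, and 58 Vsig4 KO and 124 WT cDC2. There were 176 Vsig4 KO and 488 WT monocytes and 121 Vsig4 KO and 234 WT macrophages. Among lymphocytes there were 279 Vsig4 KO and 200 WT NKT cells, 1246 Vsig4 KO and 1218 WT T cells, 293 Vsig4 KO and 345 WT NK cells and 2067 Vsig4 KO and 1925 WT B cells. Markers that the definitions had not used were highest in their own type for cDC1, monocytes, macrophages and NK cells in both libraries. NKT cells, defined by CD3 genes with Zbtb16, held less Klrb1c and Il2rb than NK cells but held the highest Trav11, the invariant receptor segment. Other innate-like T cells also carry Zbtb16 and may be among them. Among cDC2, Sirpa and Irf4 were higher in other types, as was Mgl2 in the WT library. T cells had less Trac and Cd28 than NKT cells, and B cells less Cd74 than dendritic cells. Few macrophages carried Clec4f, a Kupffer cell gene, with 4 such cells in the Vsig4 KO library and 11 in the WT library. The macrophages here are therefore not called Kupffer cells. Median UMIs per cell were higher in the Vsig4 KO library in all 8 types, for instance 11502 against 9939 in cDC1 and 2781 against 2398 in B cells.

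Over whole libraries the summed GTPase genes were level, while Irf1 was lower and Socs1 higher in the Vsig4 KO library. The 8 GTPase genes summed to 204 CPM in the Vsig4 KO library and 204 CPM in the WT library, a ratio of 1.0 with an interval of 0.963 to 1.04. Within that sum, Igtp had a ratio of 1.13 (1.02 to 1.24) and Iigp1 one of 0.799 (0.640 to 0.995). Irf1 was at 119 CPM in the Vsig4 KO library and 134 CPM in the WT library, a ratio of 0.888 (0.846 to 0.932). Socs1 was at 38.8 CPM in the Vsig4 KO library and 32.3 CPM in the WT library, a ratio of 1.20 (1.10 to 1.32). For whole libraries the share of all genes with an interval leaving out 1 was not counted. The members are thus not set apart from other genes by these totals. The libraries also differed in their mix of cells, so the totals say nothing of any single type. The rest of the account therefore goes type by type.

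The summed GTPase level set T, NKT and NK cells above dendritic cells and B cells in both libraries. In the Vsig4 KO library the sum was 329 CPM in T cells, 275 in NKT cells, 255 in NK cells, 219 in monocytes, 171 in macrophages, 167 in cDC1, 97.5 in cDC2 and 95.7 in B cells. In the WT library it was 351 CPM in NKT cells, 324 in T cells, 253 in monocytes, 247 in NK cells, 172 in cDC1, 149 in macrophages, 125 in cDC2 and 96.8 in B cells. Intervals of neighbours in these orders overlapped, except between T and NKT cells and between cDC1 and cDC2 in the Vsig4 KO library, and between T cells and monocytes and between NK cells and cDC1 in the WT library. T cells stood 3.43-fold (3.14 to 3.76) above B cells in the Vsig4 KO library and 3.35-fold (3.03 to 3.70) above them in the WT library. Macrophages stood at 0.780 of monocytes (0.638 to 0.951) in the Vsig4 KO library and at 0.589 (0.505 to 0.684) in the WT library.

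**Figure D1:**
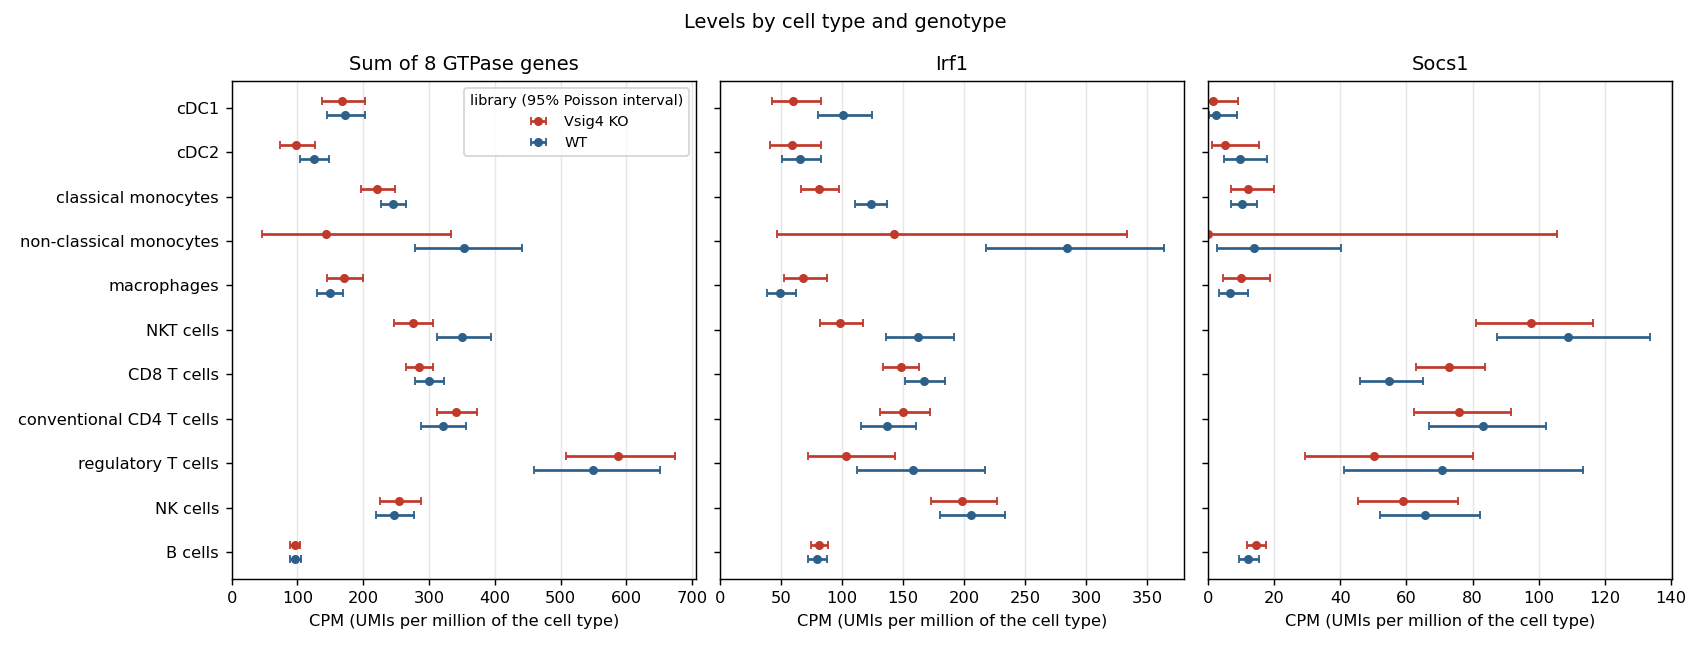
Level of the summed 8 GTPase genes, Irf1 and Socs1 in CPM (UMIs of the gene scaled to 1000000 UMIs of the cell type; linear axes from 0) in the Vsig4 KO library (red) and the WT library (blue), with monocytes and T cells split into subsets; points are summed cells and bars 95% Poisson intervals of counting error. Regulatory T cells hold the highest GTPase sum in both libraries, with 587 CPM in Vsig4 KO and 549 CPM in WT, and Socs1 is high in T, NKT and NK cells only.

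The single genes, compared here over the 8 undivided types, did not share this order. Igtp, an IRG-family GTPase, was highest in T cells and NKT cells, with 77.8 and 63.7 CPM in the Vsig4 KO library and 66.5 and 90.7 CPM in the WT library. It was 7.93-fold (6.12 to 10.4) higher in T cells than in B cells in the Vsig4 KO library and 6.89-fold (5.13 to 9.42) higher in the WT library. In NK cells Igtp was at 24.4 CPM in the Vsig4 KO library and 19.6 CPM in the WT library, while Gbp7 was at 65.6 and 71.7 CPM. Gbp7 likewise divided T cells from B cells, with T cells 7.22-fold above B cells in the Vsig4 KO library and 6.61-fold above them in the WT library. Gbp3 did not, since T cells had 1.04 times the B cell level (0.810 to 1.33) in the Vsig4 KO library and 1.21 times (0.941 to 1.57) in the WT library. Gbp3 was instead highest in monocytes and NK cells, at 40.2 and 39.4 CPM in the Vsig4 KO library and 45.9 and 37.6 CPM in the WT library.

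Gbp4 was highest in T, NKT and NK cells. T, NKT and NK cells held between 49.6 and 61.8 CPM of it in the Vsig4 KO library and between 51.2 and 65.3 CPM in the WT library, while monocytes and macrophages held 4.46 and 4.40 CPM in the Vsig4 KO library and 5.90 and 7.92 CPM in the WT library. Gbp2, a guanylate-binding protein that forms part of the coat on pathogen vacuoles, was lowest in B cells, with 11.0 CPM in the Vsig4 KO library and 13.2 CPM in the WT library. Gbp5, which is known for promoting inflammasome activation in macrophages, was higher in monocytes than in macrophages. Macrophages held 0.439 of the monocyte Gbp5 level (0.249 to 0.743) in the Vsig4 KO library and 0.412 (0.259 to 0.632) in the WT library. Irgm1, a regulator of the other immunity-related GTPases, varied least among the 10 genes over the 8 types, between 15.3 and 44.6 CPM in the Vsig4 KO library and between 14.7 and 41.9 CPM in the WT library.

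Iigp1, an effector GTPase of parasite vacuoles, lies at chr18:60376027-60392634 on the plus strand and was detected at low levels. Of the 8 undivided types it was highest in cDC1, with 17.9 CPM from 2 cells in the Vsig4 KO library and 32.3 CPM from 4 cells in the WT library. In B cells it gave 0 UMIs in the Vsig4 KO library and 1 UMI in the WT library, and in NK cells 1 UMI in the Vsig4 KO library and 0 UMIs in the WT library. Socs1, the feedback inhibitor, was at 97.6 CPM in NKT cells, 75.0 in T cells and 59.0 in NK cells of the Vsig4 KO library, and at 109, 68.7 and 65.8 CPM in the same types of the WT library. No other type exceeded 14.4 CPM of Socs1 in the Vsig4 KO library or 12.1 CPM in the WT library. Of the 8 undivided types Irf1 was highest in NK cells in both libraries, at 199 CPM in Vsig4 KO and 206 CPM in WT. Non-classical monocytes, a subset, held 143 CPM (46.4 to 334) from 5 UMIs in Vsig4 KO and 284 CPM (218 to 364) in WT.

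Among T cells, regulatory T cells, the Foxp3-positive suppressive subset, carried the most GTPase RNA. Their sum was 587 CPM (508 to 674) in 60 Vsig4 KO cells and 549 CPM (460 to 652) in 50 WT cells. Conventional CD4 T cells were at 341 CPM in the Vsig4 KO library and 321 CPM in the WT library, and CD8 T cells at 285 CPM in the Vsig4 KO library and 301 CPM in the WT library. Regulatory T cells were thus 1.72-fold (1.45 to 2.03) above conventional CD4 T cells in the Vsig4 KO library and 1.71-fold (1.39 to 2.10) above them in the WT library. Gbp3 was 3.15-fold higher in regulatory T cells in the Vsig4 KO library (1.77 to 5.52) and 2.92-fold higher in the WT library (1.62 to 5.13). Gbp5 was 3.85-fold higher in the Vsig4 KO library and 2.75-fold higher in the WT library, and Gbp7 2.67-fold higher in the Vsig4 KO library and 2.0-fold higher in the WT library. Not all of the GTPase genes ran this way. Irgm1 had ratios of 0.589 (0.243 to 1.24) in the Vsig4 KO library and 0.530 (0.137 to 1.49) in the WT library. Gbp2 had 0.708 (0.371 to 1.26) in Vsig4 KO and 1.17 (0.584 to 2.19) in WT, and Iigp1 0.724 (0.219 to 1.89) in Vsig4 KO and 2.06 (0.913 to 4.38) in WT. Irf1, the upstream factor, was not higher in regulatory T cells, with 0.687 of the conventional CD4 level (0.466 to 0.985) in the Vsig4 KO library and 1.16 (0.788 to 1.66) in the WT library. The ratio of genotypes for the regulatory T cell sum was 1.07 (0.853 to 1.34), so that contrast did not separate from 1.

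In cDC1 the comparison of genotypes rested on very few cells. Of 10 genes, 7 had at least 20 UMIs over both libraries and were compared. Gbp4 and Gbp5 had intervals above 1 and Irf1 an interval below 1, where 8.19% of all genes compared in cDC1 had an interval above 1 and 5.21% had one below 1. By size alone, 2 of the 7 were at least 1.5-fold higher in Vsig4 KO and 4 at least 1.5-fold lower, beside 12.6% and 8.56% of all genes. Gbp5 had 30 UMIs in Vsig4 KO cDC1 and 15 UMIs in WT cDC1, a ratio of 2.71 (1.41 to 5.42). Gbp4 had 14 UMIs in Vsig4 KO cDC1 and 7 UMIs in WT cDC1, also a ratio of 2.71 (1.02 to 7.94).

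A single Vsig4 KO cell set both of these. It held 16399 UMIs, 58 of the 103 GTPase UMIs of all Vsig4 KO cDC1, and UMIs of 7 of the 8 GTPase genes, among them 27 of Gbp5 and 13 of Gbp4. It also held 53 UMIs of Cxcl9 and 27 of Ccr7, the receptor that mature dendritic cells use to leave tissue. The GTPase sum of cDC1 was 167 CPM in Vsig4 KO and 172 CPM in WT with all cells, a ratio of 0.970 (0.746 to 1.26). Without the cell with most GTPase UMIs in each library the ratio was 0.528 (0.366 to 0.750). Of the Vsig4 KO UMIs then left, 23 again lay in 1 cell, which held 43265 UMIs, and the next highest cell had 3. Without the cell with most Gbp5 UMIs in each library, Gbp5 had 3 UMIs in Vsig4 KO and 10 UMIs in WT, a ratio of 0.412. Gbp4, treated in the same way, had 1 UMI in Vsig4 KO and 4 UMIs in WT, a ratio of 0.343, so that both genes turned round.

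Irf1 in cDC1 was at 60.1 CPM in Vsig4 KO and 101 CPM in WT, a ratio of 0.597 (0.394 to 0.889). It came from 18 Vsig4 KO cells and 35 WT cells. When cells with markers of other lineages were let into the cDC1 definition the Irf1 ratio was 1.01, so this difference depended on which cells were counted. In cDC2, 5 of the 10 genes could be compared and none had an interval that left out 1, where 6.14% of all genes had one above 1 and 8.06% one below 1. None differed by 1.5-fold, beside 8.7% of all genes that were higher and 14.5% that were lower by that much. The cDC2 GTPase sum was 97.5 CPM in Vsig4 KO and 125 CPM in WT, a ratio of 0.782 (0.561 to 1.08).

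Monocytes had lower Irf1 and Gbp2 in the Vsig4 KO library, and the intervals of the other members compared covered 1. Irf1 was at 82.6 CPM in Vsig4 KO and 135 CPM in WT, a ratio of 0.612 (0.492 to 0.756), from 63 Vsig4 KO cells and 196 WT cells with a UMI. Gbp2 was at 35.7 CPM in Vsig4 KO and 68.5 CPM in WT, a ratio of 0.522 (0.373 to 0.717). Its UMIs came from 21 Vsig4 KO cells and 72 WT cells, with 12 of 48 in 1 Vsig4 KO cell and 31 of 209 in 1 WT cell. Irf1 and Gbp2 were 2 of 9 genes compared with an interval below 1, where 8.46% of all genes had one. No member had an interval above 1, where 8.62% of all genes had one. They were also the 2 genes at least 1.5-fold lower, beside 10.4% of all genes, and none was 1.5-fold higher, beside 6.64%. Gbp5 at 1.14 (0.834 to 1.56) and Irgm1 at 1.23 (0.881 to 1.70) had ratios above 1, and Gbp4 one of 0.757 (0.246 to 1.99). Iigp1, with 0 UMIs in Vsig4 KO and 8 UMIs in WT, was not compared. The median log2 ratio of the 9 genes was -0.19, beside -0.02 for all genes.

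Both differences were present in classical monocytes, the Ly6c2-type inflammatory cells, with a ratio of 0.656 (0.522 to 0.817) for Irf1 and 0.556 (0.396 to 0.767) for Gbp2. In that subset 8.6% of all genes had an interval above 1 and 8.38% one below 1. Non-classical monocytes were 10 cells in the Vsig4 KO library and 56 cells in the WT library, and the 5 GTPase UMIs in the Vsig4 KO library all came from 1 cell. The monocyte GTPase sum was 219 CPM in Vsig4 KO and 253 CPM in WT, a ratio of 0.864 (0.753 to 0.989). In classical monocytes alone the ratio of the sum was 0.899 (0.781 to 1.03), an interval that covered 1. It was 1.05 (0.937 to 1.18) in all monocytes when cells with markers of other lineages were let in. Neutrophil markers summed to 135 CPM in Vsig4 KO monocytes and 14.1 CPM in WT monocytes, with 1 of 3 markers at 0 in both, and their part in these ratios was not tested.

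Macrophages were the 1 myeloid type in which most members leaned towards the Vsig4 KO library, but none separated. The GTPase sum was 171 CPM in Vsig4 KO and 149 CPM in WT, a ratio of 1.14 (0.927 to 1.41). Irf1 was at 68.3 CPM in Vsig4 KO and 49.5 CPM in WT, a ratio of 1.38 (0.969 to 1.96). None of the 7 genes compared had an interval that left out 1, where 6.14% of all genes had one above 1 and 7.18% one below 1. None differed by 1.5-fold, beside 7.18% of all genes higher and 11% lower by that much. Without limits on other lineages the Irf1 ratio was 2.61 (1.44 to 4.83), from 31 UMIs in Vsig4 KO and 20 UMIs in WT, since many macrophages then fell into more than 1 type and were left out. Melanoma markers, none of 3 at 0 in either library, summed to 41.8 CPM in Vsig4 KO and 10.6 CPM in WT macrophages. Erythroid markers, 1 of 2 at 0 in WT, summed to 28.6 CPM in Vsig4 KO and 0.660 CPM in WT, and the part of either was not tested.

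In NKT cells the GTPase sum and Irf1 were lower in the Vsig4 KO library. The GTPase sum was 275 CPM (247 to 306) in Vsig4 KO and 351 CPM (312 to 394) in WT, a ratio of 0.785 (0.670 to 0.921). Irf1 was at 98.4 CPM in Vsig4 KO and 162 CPM in WT, a ratio of 0.607 (0.472 to 0.780). With Irf1, Gbp3 at 0.434 (0.191 to 0.952) and Igtp at 0.703 (0.507 to 0.975), 3 of 9 genes compared had an interval below 1, where 8.5% of all genes had one. No member had an interval above 1, where 6.87% of all genes had one. At least 1.5-fold lower were Gbp3, Irgm1 and Irf1, beside 10.9% of all genes, and no member was 1.5-fold higher, beside 8.87%.

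Irgm1 had 28 UMIs in Vsig4 KO and 31 UMIs in WT NKT cells, a ratio of 0.588 (0.340 to 1.01). Gbp2, at 1.17 (0.703 to 1.99), and Gbp5, at 1.0 (0.474 to 2.19), were not lower. Socs1 was at 97.6 CPM in Vsig4 KO and 109 CPM in WT, a ratio of 0.896 (0.678 to 1.19). The median log2 ratio of the 9 genes was -0.40, beside -0.05 for all genes. When NKT cells were defined by Trav11 in place of Zbtb16, 42 Vsig4 KO and 26 WT cells were left and the GTPase ratio was 0.938 (0.608 to 1.46). Neutrophil markers summed to 73.2 CPM in Vsig4 KO and 3.63 CPM in WT NKT cells, with 1 of 3 at 0 in both, and genes of the dissociation and early response stood at 1.20 times the WT sum. The part of either in the NKT ratios was not tested.

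T cells, with the most UMIs behind each ratio, were nearly level. The GTPase sum was 329 CPM (314 to 344) in Vsig4 KO and 324 CPM (308 to 340) in WT, a ratio of 1.01 (0.949 to 1.08). Igtp had a ratio of 1.17 (1.01 to 1.35), 1 of 10 genes with an interval above 1, where 10.8% of all genes had one. Iigp1 and Irf1 were 2 of 10 genes with an interval below 1, where 9.63% of all genes had one. Irf1 was at 144 CPM in Vsig4 KO and 160 CPM in WT, a ratio of 0.897 (0.813 to 0.990). Iigp1 was the 1 gene at least 1.5-fold lower, beside 4.7% of all genes, and none was 1.5-fold higher, beside 5.39%. In conventional CD4 T cells alone the Irf1 ratio was 1.10 (0.887 to 1.36). Neutrophil markers, none at 0 in Vsig4 KO and 1 of 3 at 0 in WT, summed to 206 CPM in Vsig4 KO T cells and 51.0 CPM in WT T cells, and their part was not tested.

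Iigp1 differed most among the members in T cells. It had 53 UMIs in 41 Vsig4 KO T cells and 96 UMIs in 60 WT T cells, a ratio of 0.471 (0.330 to 0.665). CD8 T cells had 7 UMIs in 6 Vsig4 KO cells and 36 UMIs in 19 WT cells, a ratio of 0.176 (0.0662 to 0.402). Regulatory T cells had 5 UMIs in Vsig4 KO and 11 UMIs in WT, a ratio of 0.322 (0.0877 to 1.01). In conventional CD4 T cells there were 29 UMIs in Vsig4 KO and 24 UMIs in WT, a ratio of 0.919 (0.516 to 1.65). CD8 T cells also had more Socs1, with 195 UMIs in Vsig4 KO and 133 UMIs in WT, a ratio of 1.33 (1.06 to 1.67). In CD8 T cells 9.01% of all genes had an interval above 1 and 6.69% one below 1.

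NK and B cells showed no member that separated. In NK cells the GTPase sum was 255 CPM in Vsig4 KO and 247 CPM in WT, a ratio of 1.03 (0.872 to 1.22), and Irf1 had a ratio of 0.965 (0.799 to 1.17). The background in NK cells was 7.07% of genes with an interval above 1 and 6.87% with one below 1. None of 9 genes differed by 1.5-fold, beside 7.77% of all genes higher and 8.18% lower. Erythroid markers gave 0 CPM in Vsig4 KO NK cells and 1937 CPM in WT NK cells. Neutrophil markers, 1 of 3 at 0 in both, gave 6.56 CPM in Vsig4 KO and 476 CPM in WT NK cells, and the part of either was not tested. In B cells the GTPase sum was 95.7 CPM in Vsig4 KO and 96.8 CPM in WT, a ratio of 0.989 (0.879 to 1.11), and Irf1 had a ratio of 1.02 (0.897 to 1.16). There 10.5% of all genes had an interval above 1 and 11% one below 1, and none of 9 members differed by 1.5-fold, beside 6.1% of all genes higher and 4.76% lower.

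**Figure D2:**
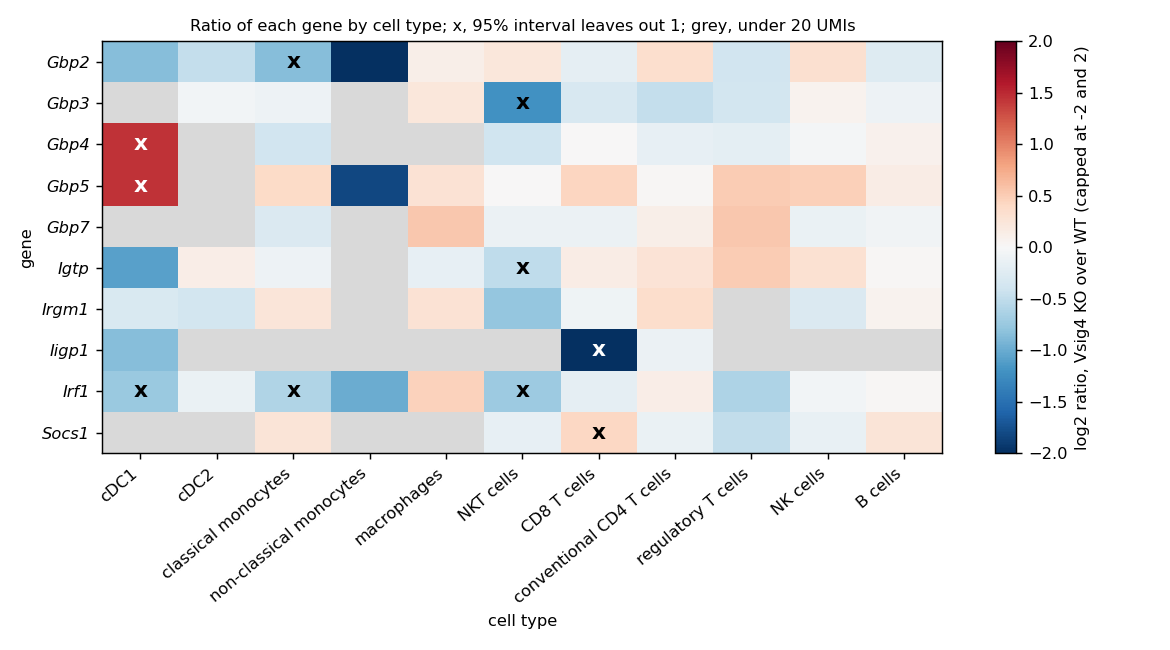
Log2 ratio of Vsig4 KO over WT for each gene (rows) in each cell type or subset (columns), on a colour scale capped at -2 and 2; grey marks fewer than 20 UMIs over both libraries and x a 95% counting interval that leaves out 1. The marks fall in cDC1, classical monocytes, NKT cells and CD8 T cells, and Gbp2 of non-classical monocytes, with 0 UMIs in Vsig4 KO, is drawn at the cap.

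The GTPase RNA was spread over cells very unevenly. Of the 8 types it was most uneven in cDC1 in the Vsig4 KO library and in cDC2 and cDC1 in the WT library. The tenth of cDC1 with the most GTPase UMIs held 87.4% of them in the Vsig4 KO library and 77.8% in the WT library. In cDC2 the share was 60.7% in Vsig4 KO and 78.1% in WT, and in monocytes 58.5% in Vsig4 KO and 60.5% in WT. In macrophages it was 69.0% in Vsig4 KO and 64.2% in WT. T cells, at 45.8% in Vsig4 KO and 45.9% in WT, NKT cells, at 40.3% in Vsig4 KO and 45.5% in WT, and NK cells, at 38.6% in Vsig4 KO and 40.5% in WT, were more even. B cells had 63.7% in Vsig4 KO and 64.6% in WT, at the fewest UMIs per cell of the 8 types.

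The types with the deepest cells were not those with the most GTPase-positive cells. T cells, at a median of 3940.5 UMIs in Vsig4 KO and 3418 UMIs in WT, had a GTPase UMI in 59.6% of Vsig4 KO cells and 57.4% of WT cells. The deeper cDC1 had one in 37.3% of Vsig4 KO cells and 40.7% of WT cells. With every cell thinned to 1000 UMIs the share was 25.0% in Vsig4 KO and 24.6% in WT T cells, against 9.80% in Vsig4 KO and 9.88% in WT cDC1. Thinned regulatory T cells had the highest share, 45.0% (32.1 to 58.4) in Vsig4 KO and 33.3% (20.4 to 48.4) in WT. No cell type was set aside as lacking these genes, so the part of free RNA in such shares was not tested.

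**Figure D3:**
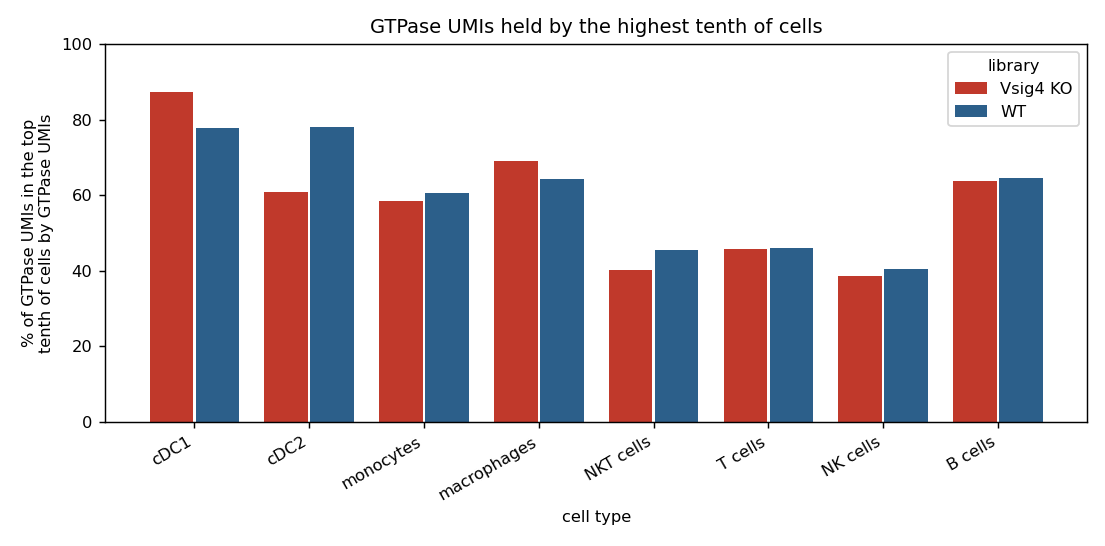
Percent of all GTPase UMIs of a cell type (y axis, from 0 to 100) that lay in the tenth of its cells with the most such UMIs, by cell type, for the Vsig4 KO library (red) and the WT library (blue). The bars are single values with no replicate, highest in cDC1 at 87.4% in Vsig4 KO and in cDC2 at 78.1% in WT, and lowest in NK cells at 38.6% in Vsig4 KO and 40.5% in WT.

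Cells with UMIs of 3 or more of the 8 GTPase genes were looked at on their own, since they held much of the RNA. In cDC1 there were 3 such cells among Vsig4 KO, with 81.6% of the GTPase UMIs, and 7 among WT, with 67.4%. In monocytes they were 14 Vsig4 KO cells, or 7.95% (4.42 to 13), and 50 WT cells, or 10.2% (7.70 to 13.3). In macrophages they were 14 Vsig4 KO cells, or 11.6% (6.47 to 18.7), and 14 WT cells, or 5.98% (3.31 to 9.83). In T cells they were 149 Vsig4 KO cells, or 12% (10.2 to 13.9), and 125 WT cells, or 10.3% (8.61 to 12.1). The intervals overlapped between genotypes in each of these types. In regulatory T cells the share reached 31.7% (20.3 to 45.0) in Vsig4 KO and 24.0% (13.1 to 38.2) in WT, and in B cells it was 0.919% in Vsig4 KO and 0.675% in WT.

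Irf1, which had not been used to choose these cells, was higher in them than in the other cells of the 4 myeloid types. Irf1 was 2.70-fold higher (1.61 to 4.34) in the chosen monocytes in Vsig4 KO and 2.05-fold higher (1.62 to 2.59) in WT, and in the chosen macrophages 2.72-fold higher (1.51 to 4.73) in Vsig4 KO and 2.33-fold higher (1.23 to 4.15) in WT. In T cells the Irf1 ratio was 1.25 (1.06 to 1.46) in Vsig4 KO and 1.0 (0.826 to 1.21) in WT. The type I interferon target Isg15 was also higher in the chosen monocytes, by 4.81-fold (3.76 to 6.11) in Vsig4 KO and 5.34-fold (4.57 to 6.24) in WT, and in the chosen T cells, by 3.56-fold (2.92 to 4.34) in Vsig4 KO and 3.99-fold (3.22 to 4.94) in WT. Cxcl9, a chemokine gene that depends on interferon-gamma, rested on few cells. In cDC1 it was at 955 CPM in the chosen cells and 10.8 CPM in the others in Vsig4 KO, and at 2130.4 and 216 CPM in WT. Without the chosen cell with most Cxcl9 in each library the chosen cDC1 were at 151 CPM in Vsig4 KO, from 7 UMIs in 2 cells, and at 1257.5 CPM in WT. Among cDC2 it was found in chosen cells alone, with all 3 UMIs in 1 cell in Vsig4 KO and 119 of 134 UMIs in 1 cell in WT. In monocytes 1 cell held 12 of the 13 UMIs of the chosen Vsig4 KO cells, and without it their ratio to the others was 0.454 (0.0111 to 2.76), against 22.9 (15.0 to 35.9) in WT. The chosen cells had more UMIs in all, for instance a median of 5817 against 3774 in Vsig4 KO T cells and 4815 against 3311 in WT T cells, and whether some were doublets was not tested.

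**Figure D4:**
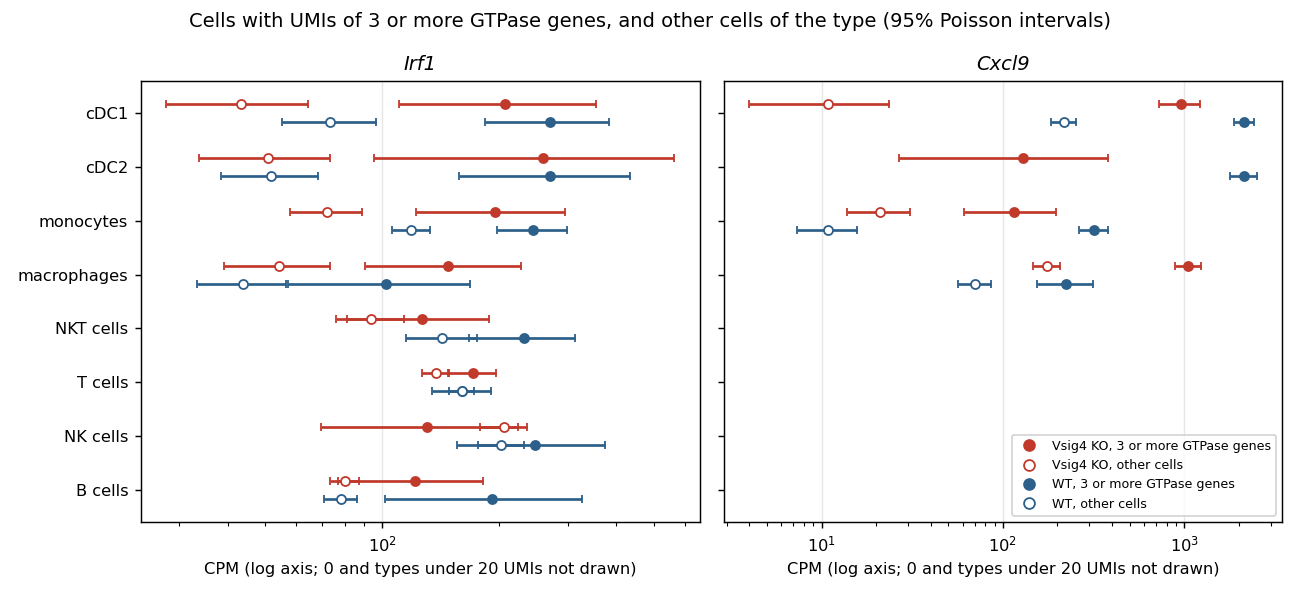
Level in CPM (log axes) of Irf1 and Cxcl9 in cells with UMIs of 3 or more GTPase genes (filled) and in the other cells (open) of each cell type, in the Vsig4 KO library (red) and the WT library (blue), with 95% Poisson intervals; values of 0 and cell types with under 20 UMIs of the gene are not drawn. Irf1 in monocytes is higher in the filled points, by 2.70-fold in Vsig4 KO and 2.05-fold in WT, and Cxcl9 in cDC1 is at 955 against 10.8 CPM in Vsig4 KO and at 2130.4 against 216 CPM in WT, with 1 cell holding 53 of the 60 UMIs of the filled Vsig4 KO point.

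Upstream, the ligand gene Ifng was higher in NK cells of the Vsig4 KO library and near level in NKT cells and in T cells as a whole. NK cells had 341 CPM in Vsig4 KO and 208 CPM in WT, a ratio of 1.64 (1.39 to 1.94). NKT cells had 482 CPM in Vsig4 KO and 508 CPM in WT, a ratio of 0.950 (0.837 to 1.08), and T cells 122 CPM in Vsig4 KO and 123 CPM in WT, a ratio of 0.989 (0.886 to 1.10). Regulatory T cells had 11 UMIs in Vsig4 KO and 30 UMIs in WT, a ratio of 0.260 (0.117 to 0.533).

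Of the receptor chains, Ifngr1 was higher in the Vsig4 KO library in 4 lymphocyte types, with ratios of 1.5 (1.36 to 1.66) in NKT cells, 1.33 (1.27 to 1.40) in T cells, 1.31 (1.22 to 1.40) in NK cells and 1.23 (1.09 to 1.38) in B cells. Ifngr2, the signalling chain, had 256 UMIs in Vsig4 KO and 95 UMIs in WT T cells, a ratio of 2.30 (1.81 to 2.94). In the 4 myeloid types no interval of either chain left out 1. Stat2, which acts in type I interferon signalling, had ratios of 0.600 in cDC1, 0.505 in cDC2, 0.536 in monocytes and 0.752 in T cells, each with an interval below 1. Of the 8 signalling genes compared, 1 had an interval below 1 in cDC1, 1 in cDC2, 1 in monocytes and 2 in T cells. Intervals above 1 numbered 1, 2, 2 and 1 in the same types. Among all genes, 5.21%, 8.06%, 8.46% and 9.63% had an interval below 1 there, and 8.19%, 6.14%, 8.62% and 10.8% one above 1.

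Few other interferon-inducible GTPase genes differed when taken one by one. Of 8 compared in T cells, 1 had an interval below 1 and none had one above 1, beside 9.63% and 10.8% of all genes. That gene was Irgm2, at 29.2 CPM in Vsig4 KO and 43.3 CPM in WT, a ratio of 0.674 (0.548 to 0.828). Of 7 in NKT cells, 1 had an interval below 1, Ifi47 at 0.766 (0.605 to 0.971), beside 8.5% of all genes, and of 5 in monocytes 1 did, again Ifi47 at 0.685 (0.500 to 0.925), beside 8.46%. Of 5 in NK cells, 1 had an interval above 1, Gbp9 at 1.96 (1.09 to 3.64), beside 7.07% of all genes. In macrophages, where 4 were compared, and in B cells, where 5 were, none left out 1. Summed over this list, the ratio was 0.671 (0.534 to 0.837) in monocytes, 0.815 (0.707 to 0.940) in NKT cells and 0.863 (0.748 to 0.995) in B cells. All 5 genes compared in monocytes and 6 of 7 in NKT cells had ratios below 1. The interval of the sum covered 1 in the other undivided types, for instance at 0.962 (0.899 to 1.03) in T cells and 1.16 (0.967 to 1.38) in NK cells.

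The chemokine gene Cxcl9 differed more between the libraries in cDC1 and macrophages than any member compared did in the 8 types. Cxcl9 was at 107 CPM in Vsig4 KO and 479 CPM in WT cDC1, a ratio of 0.224 (0.170 to 0.291), but at 306 CPM in Vsig4 KO and 85.1 CPM in WT macrophages, a ratio of 3.60 (2.91 to 4.47). Single cells held much of it, with 53 of 66 UMIs in 1 Vsig4 KO and 116 of 400 UMIs in 1 WT cDC1, and 100 of 278 UMIs in 1 Vsig4 KO and 29 of 129 UMIs in 1 WT macrophage. Without the cell with most Cxcl9 in each library the ratio was 0.0628 (0.0330 to 0.109) in cDC1 and 2.95 (2.30 to 3.81) in macrophages. Cxcl10 was 2.37-fold higher in Vsig4 KO macrophages (2.05 to 2.74) and 2.16-fold higher in Vsig4 KO monocytes (1.98 to 2.34), the type in which Irf1 and Gbp2 were lower. Both chemokine genes belong to the list of other interferon-gamma targets. Of 9 compared from that list in monocytes, 2 had an interval above 1 and 4 one below 1, beside 8.62% and 8.46% of all genes. Of 9 in macrophages, 2 had one above 1 and 1 below 1, beside 6.14% and 7.18%. Of 9 in cDC1, none had one above 1 and 3 below 1, beside 8.19% and 5.21%. Among type I interferon targets, Isg15 had a ratio of 0.233 (0.111 to 0.446) in cDC1 and 2.65 (2.11 to 3.35) in NKT cells. Of 10 such genes compared in T cells, 1 had an interval above 1 and none had one below 1, beside 10.8% and 9.63% of all genes. Of 6 in NK cells, 3 had an interval above 1 and none had one below 1, beside 7.07% and 6.87%. The sum of these targets had a ratio of 1.34 (1.10 to 1.64) in NK cells and 1.39 (1.21 to 1.59) in NKT cells. It was 0.718 (0.610 to 0.843) in cDC1 and 0.845 (0.732 to 0.975) in cDC2. In NKT cells 5 such genes were compared, and Isg15 was the only 1 with a ratio above 1, while 4 were below 1. Isg15 had the 1 interval above 1 there and 1 other gene had one below 1, beside 6.87% and 8.5% of all genes.

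**Figure D5:**
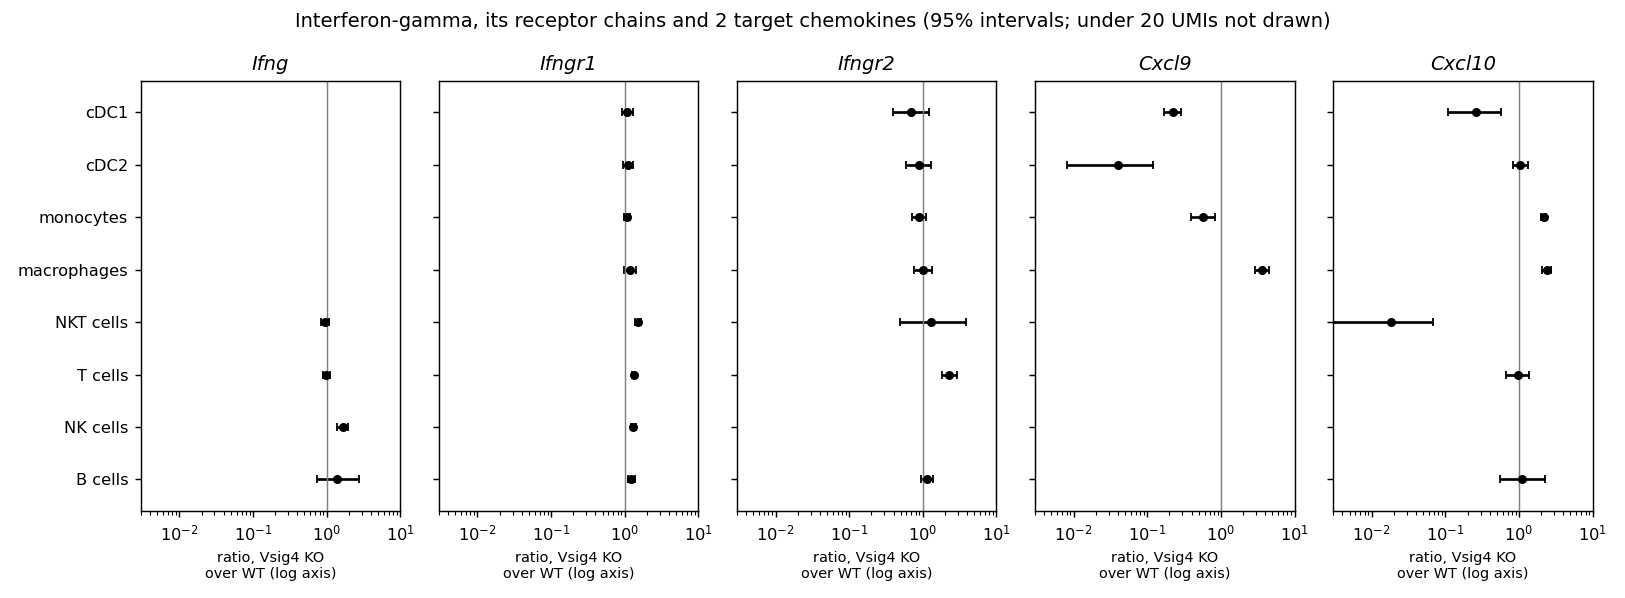
Ratio of Vsig4 KO over WT (x axes, log scale) for Ifng, Ifngr1, Ifngr2, Cxcl9 and Cxcl10 in each cell type, with 95% intervals of counting error and a grey line at 1; genes with under 20 UMIs in a type are not drawn, and the interval of Cxcl10 in NKT cells runs off the left edge. Ifng lies above 1 in NK cells at 1.64, and Cxcl9 below 1 in cDC1 at 0.224 and above 1 in macrophages at 3.60.

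Genes of tissue dissociation and early response, which move with handling of the cells, also differed between the libraries. Their sum in Vsig4 KO over WT was 1.14 in cDC1, 0.983 in cDC2, 0.953 in monocytes, 1.01 in macrophages, 1.20 in NKT cells, 0.984 in T cells, 1.22 in NK cells and 0.789 in B cells. The heat-shock gene Hspa1a was lower in Vsig4 KO B cells, at 784 CPM against 1404 CPM in WT, and the immediate early gene Egr1 higher in Vsig4 KO NKT cells, at 569 CPM against 112 CPM in WT. Irf1 is itself quickly induced, and the part of handling in its ratios was not tested.

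The 6 genes outside the 10 whose levels ran most like the GTPase sum over the 16 sums of 8 types in 2 libraries were Notch1, Ifi47, Leprotl1, Itgal, S100a13 and Tmem9b. Pearson's r of log2(CPM + 1) was 0.924 for Notch1, 0.924 for Ifi47, 0.916 for Leprotl1, 0.897 for Itgal, 0.886 for S100a13 and 0.873 for Tmem9b, the highest among 7501 genes. Among the 10 themselves, Gbp7 and Socs1 had the highest r, 0.905, and Gbp3 and Iigp1 the lowest, -0.443. The sums of a library share its preparation, and the 2 sums of a type share the cell type, so these values are a description.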

How the data were processed

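The study deposited UMI counts per gene and barcode, 1 matrix for each library. Per the labels, libraries were made with the 10x Genomics 5′ chemistry, and per the submitters' processing notes Cell Ranger 7.1.0 and the build mm10 were used. The counts deposited by the authors were whole numbers and were used as given. Whether intronic or ambient reads were removed is not given in the sources used here.

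A barcode was kept if it held 500 UMIs or more from 200 genes or more and no more than 10% of them were mitochondrial. Cell types were defined by raw UMIs of marker genes. B cells needed 2 UMIs summed over B cell markers that include Cd79a and Ms4a1, and T cells 2 UMIs of Cd3d, Cd3e and Cd3g with no Zbtb16 or Trdc. NKT cells needed the CD3 UMIs with Zbtb16, and NK cells 2 UMIs of Ncr1 and Klrb1c with no CD3 UMI. Macrophages needed 5 C1q UMIs with Csf1r or Adgre1, monocytes Csf1r with Ly6c2, Chil3, F13a1 and Ccr2 or with Treml4, Ace and Cd300e, cDC1 2 UMIs of Xcr1 and Clec9a, and cDC2 Flt3 with Cd209a. Limits on markers of other lineages were applied in each type. No doublet caller was run, and cells that met the definitions of more than 1 type were left out.

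UMIs were summed per type and library and scaled to CPM. CPM values carry exact Poisson intervals, ratios exact conditional binomial intervals and shares Clopper-Pearson intervals, all at 95%. Genes with at least 20 UMIs over both libraries were compared. Shares of cells were also taken after thinning each cell to 1000 UMIs. Positions came from GENCODE M21, in which 31184 of 31253 gene identifiers were found, and promoters from RefSeq. Python 3.11.15, numpy 2.4.6, scipy 1.17.1 and pandas 2.3.3 were used. The interval code was tested on simulated data.

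All 10 genes were counted in every type, though not every value is printed. Pathway genes come from lists for the ligand and receptor, signalling, other GTPases, other interferon-gamma targets, type I interferon targets, and dissociation and early response, and those named had a ratio of at least 1.5 or at most its inverse with at least 50 UMIs, or were picked out after their values were seen. The list members Gbp11, Gm12250 and Mx1 are not analysed here, and a further marker of the B cell definition and a signalling gene are not reported here. Genes, lists and cell type definitions were chosen with earlier results of these data known. Alternatives changed the limits on genes, mitochondrial UMIs and markers, the scaling, the weight of each cell, the minimum UMIs of a gene and the cell subsets, and left out the top 5% of barcodes by UMIs. Leaving out the cell with most UMIs of a gene, for members and for named pathway genes, was added after the data had been seen.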

Additional observations from a re-analysis of the deposited data

Results flagged for a closer look

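Igtp differed in opposite directions in 2 kinds of T cell. Its ratio of Vsig4 KO over WT was 1.17 (1.01 to 1.35) in T cells, with 453 UMIs in Vsig4 KO and 330 UMIs in WT, and 0.703 (0.507 to 0.975) in NKT cells, with 81 UMIs in Vsig4 KO and 75 UMIs in WT. It was picked out because the counting intervals lay on opposite sides of 1, though each came close to 1. Igtp was 1 of 10 members with an interval above 1 in T cells, beside 10.8% of all genes. In NKT cells it was 1 of 3 members of 9 with an interval below 1, beside 8.5% of all genes. The difference between the cell types was not tested, since each genotype has 1 library. Igtp overlaps Irgm2 on its strand, and Irgm2 had ratios of 0.674 (0.548 to 0.828) in T cells and 0.666 (0.427 to 1.04) in NKT cells.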

How the results depend on the processing

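No paired analysis was possible because there was 1 library per genotype and no test. Over 802 recalculations, 766 kept the direction and stayed within the spread allowed for the value, 31 moved and 5 turned round. Most of these did not answer a comparison. Among those that did, 172 stayed the same, 5 moved and 3 turned round. When limits on markers of other lineages were lifted, the GTPase ratio was 1.05 in monocytes, and the Irf1 ratio was 1.01 in cDC1 and 2.61 in macrophages. Within subsets, the GTPase ratio was 0.405 in non-classical monocytes alone and the Irf1 ratio was 1.10 in conventional CD4 T cells and 0.653 in regulatory T cells. NKT cells defined by Trav11 had a GTPase ratio of 0.938. Without the cell with most of its UMIs in each library, an alternative added after seeing the data, the cDC1 ratios were 0.528 for the GTPase sum, 0.343 for Gbp4, 0.412 for Gbp5 and 0.0628 for Cxcl9. Those of Gbp4 and Gbp5 rested on under 20 UMIs. The cause was not tested in any of these, beside the fewer cells that the subset and single-cell alternatives leave by construction. No scaling between libraries moved the median of all genes by over 0.1 on the log2 scale, and the largest shift was 0.095 in cDC1. Depth limits Iigp1, Gbp4 and Socs1 most in myeloid cells, where several sums held under 20 UMIs.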
